A study of Mus musculus with 8 samples.

Results

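The mitochondrial carriers of the solute carrier 25 family, with the uncoupling proteins *Ucp1*, *Ucp2* and *Ucp3*, were examined in diabetic mouse kidney with and without rFGF4. Members were taken by gene symbol, every *Slc25a* gene with a number and the 3 uncoupling proteins, with 1 family gene left out, which gave 49 genes of the 55401 in the expression table. Kidney RNA of 8 mice was sequenced with 1 library per mouse. Mice 1, 2, 3 and 5 of the treated group had received rFGF4, a truncated recombinant form of fibroblast growth factor 4 with little mitogenic activity, and mice 2, 3, 4 and 5 of the control group had received PBS vehicle. The study describes male mice injected with 1 mg/kg every other day for 8 weeks. It gives 12 weeks as the age at the first injection of db/db mice, its passages on streptozotocin mice imply differing ages, and the age of the sequenced mice is not settled. All 8 mice were diabetic, and no non-diabetic kidney was among the libraries used here. The sample labels give the genotype as db/db model, mice without a working leptin receptor, whereas the text of the study describes mice made diabetic with streptozotocin. The files do not settle this, and the groups are named here by treatment only.

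Values are FPKM, fragments scaled to exon length and to the mapped reads of the library, so levels can be compared between genes. Comparisons between mice also depend on the make-up of each library. The summed FPKM of all genes ran from 389407 in rFGF4 mouse 1 to 552604 in vehicle mouse 2. A value of 0.0001 stands in place of 0. No read counts were given. The ratio shared most often by low values, assumed to be single reads, stood in for depth. It lay between 0.908 and 1.13 relative to vehicle mouse 2. This ratio rested on 68 to 101 low genes in each of the other libraries. It was sought only among genes with similar values in both libraries, so a larger difference in depth could not have shown. Kidney markers were present in every library, with *Slc34a1*, the phosphate transporter of the proximal tubule, lowest at 136 FPKM in rFGF4 mouse 1. Markers of other cell types differed between mice within a group. The summed FPKM of 10 proximal tubule markers was 791 in rFGF4 mouse 1 and 1894 to 3272 in the other 7 mice. The summed FPKM of 8 leukocyte markers was 873 in rFGF4 mouse 1, 1399 in vehicle mouse 5 and 26.9 to 283 in the other 6. These sums and the carriers come from whole kidney, in which fewer cells of a type and less RNA per cell cannot be told apart.

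Carriers of this family are small proteins that sit mostly in the inner mitochondrial membrane and move metabolites between the matrix and the cytosol. They bring in ADP and phosphate for ATP synthesis, pass carboxylates and amino acids in and out, and import cofactors that the matrix cannot make. The uncoupling proteins belong to the same family, and *Ucp1* lets protons back into the matrix to make heat in brown fat. Proximal tubule cells are rich in mitochondria and depend on oxidative metabolism for sodium-driven reabsorption.

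The level of the family in the kidney was dominated by the ADP/ATP exchanger *Slc25a5*, and no tested carrier passed the study's threshold between rFGF4 and vehicle. Of the 49 members, 40 had at least 0.5 FPKM in 4 or more libraries and were tested, and 9 stayed below this level. The study called a gene when its p without adjustment was below 0.05 and its fold change reached 1.5 upward or 0.67 downward. In this fit that threshold was passed by 0 of the 40, against 1.53% of all 15150 tested genes (1.09% higher and 0.442% lower in rFGF4). An unadjusted p under 0.05 by limma was found for 1 of the 40, the citrate carrier *Slc25a1*, against 4.62% of all genes. No tested gene passed an adjusted p of 0.05, a background of 0%, and the smallest adjusted p by limma was 0.918. The log2 fold change was above 0 for 24 of the 40 tested members, 60%, against 67.1% of all tested genes. Its median was 0.06 in the tested members and 0.09 over all tested genes. These values rested in part on rFGF4 mouse 1. Without that mouse 29 of the 40 lay above 0, with a median of 0.12 against 0.01 over all tested genes, 2 carriers passed the study's threshold against 1.36% of all tested genes, and 5 had an unadjusted p under 0.05 against 4.33%. With any mouse left out, the median of the tested members was between 0.03 and 0.12, and 0 to 5 of them had an unadjusted p under 0.05 by limma, against 2.91% to 9.45% of all genes tested in those fits. The fold changes, here and below, are differences on the log2(FPKM + 1) scale, which understates changes of genes with low values.

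**Figure D1:**
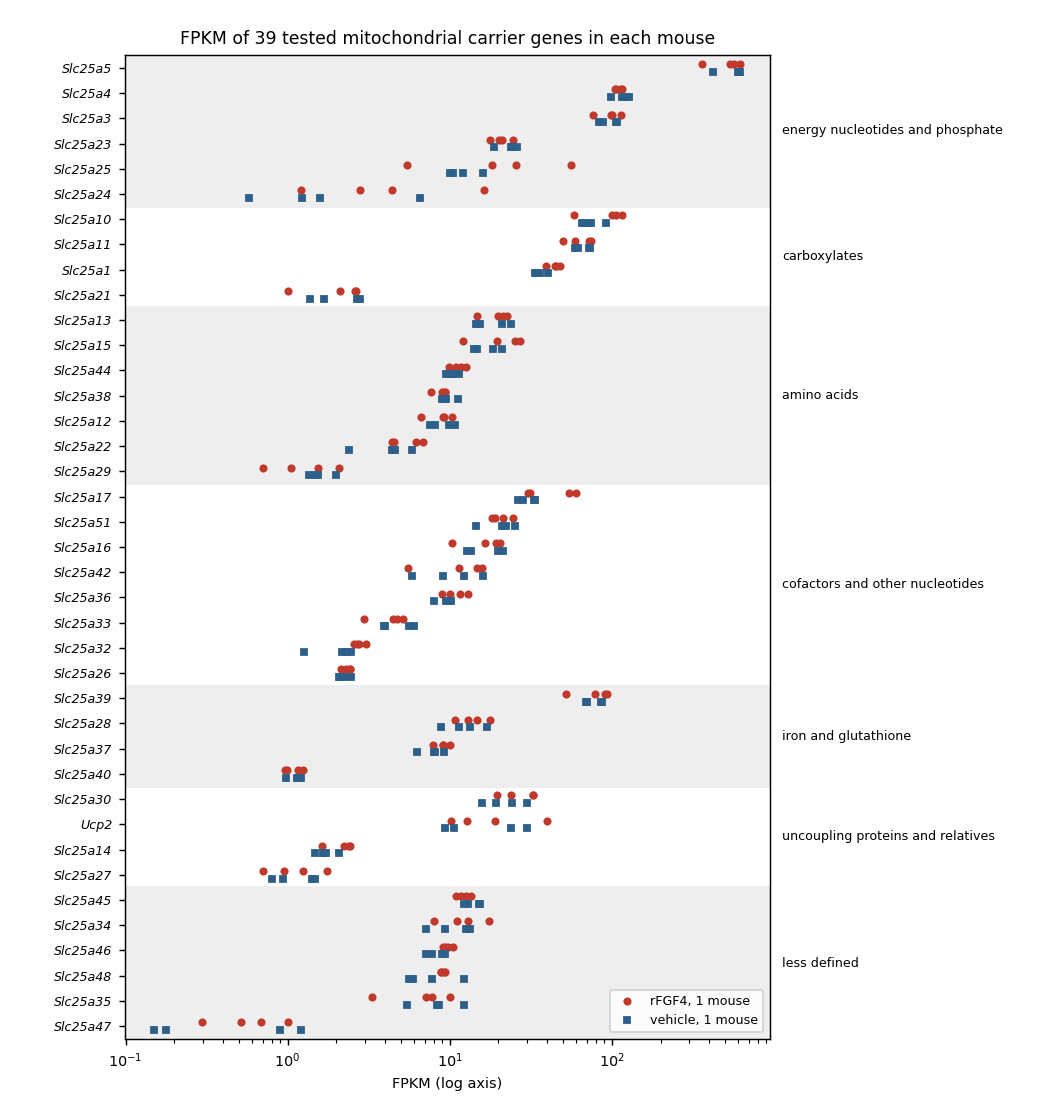
FPKM of 39 tested carrier genes on a log axis, grouped by what they carry and sorted by mean within each group; each point is 1 mouse, circles rFGF4 and squares vehicle. *Slc25a5* lies above all other carriers in every mouse, and of the genes drawn only *Slc25a32* has groups that do not overlap.

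The intervals give the size of change that the spread between mice would have allowed. The 95% interval of the fold change lay within 1.5-fold in both directions for 21 of the 40 tested members, against 47% of all tested genes. For the rest, a change of 1.5-fold in at least 1 direction lay inside the interval. For 30 of the 40 the difference between the groups was smaller than the standard deviation between mice of a group.

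**Figure D2:**
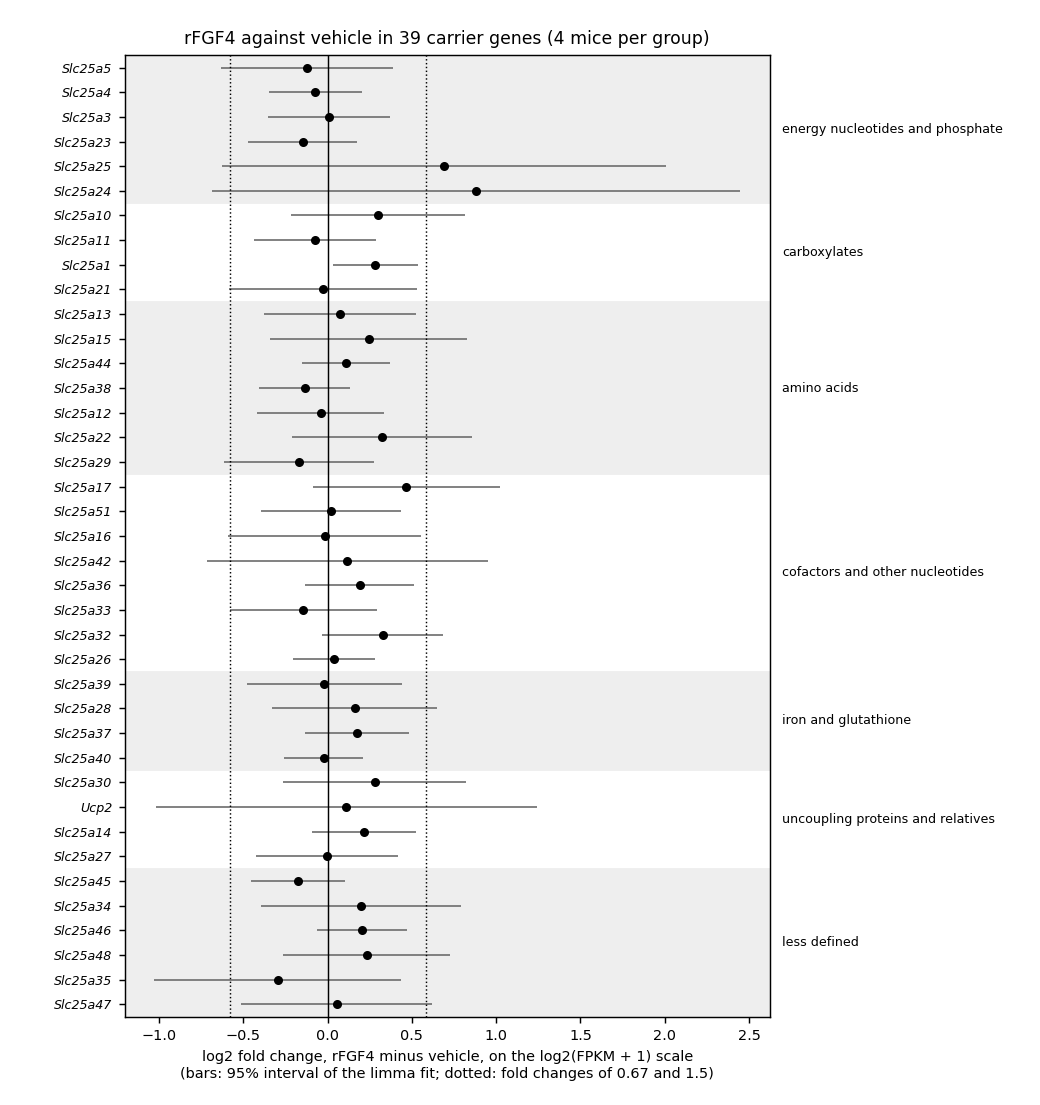
Log2 fold change of 39 tested carriers between rFGF4 and vehicle (points) with its 95% interval from the limma fit (bars); dotted lines mark fold changes of 0.67 and 1.5. Among the genes drawn the interval crosses 0 for all but *Slc25a1*, and it is widest for *Slc25a24*, *Slc25a25* and *Ucp2*.

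The first role group carries adenine nucleotides and phosphate. *Slc25a5*, which exchanges matrix ATP for cytosolic ADP in most tissues, held 39.2% of the summed FPKM of all members. It measured 360, 565, 621 and 538 FPKM in rFGF4 mice 1, 2, 3 and 5, and 603, 616, 606 and 423 FPKM in vehicle mice 2, 3, 4 and 5. The groups overlapped, with the lowest value of each in the mouse with the most leukocyte marker RNA of its group. The log2 fold change was -0.12 with a 95% interval of -0.63 to 0.39 (limma unadjusted p = 0.6), and it was 0.05 without rFGF4 mouse 1. *Slc25a4*, the ADP/ATP exchanger typical of heart and muscle, was second at 105, 106, 115 and 114 FPKM in rFGF4 mice and 121, 128, 116 and 98.8 in vehicle mice. All 4 rFGF4 values lay below the vehicle median but within the vehicle range, and the log2 fold change was -0.07 with an interval of -0.35 to 0.20, or 0.027 when libraries were scaled without mitochondrial transcripts. The phosphate carrier *Slc25a3* measured 76.4, 114, 98.8 and 100 FPKM in rFGF4 mice and 108, 88.4, 107 and 83.6 in vehicle mice. The group means, 97.5 ± 15.7 and 96.5 ± 12.4 FPKM (SD, n = 4 each), differed by far less than the SD. *Slc25a31*, the testis exchanger, was listed at 0 in 6 of the 8 libraries and did not exceed 0.0637 FPKM, and *Slc25a41*, an ATP-Mg carrier, was above 0 in 1 library only, at 0.0426 FPKM.

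The same role group holds the calcium-responsive carriers that exchange ATP-Mg for phosphate, and among these the spread between mice was large. *Slc25a23* was steady, at 17.8 to 24.4 FPKM in rFGF4 and 18.8 to 25.8 in vehicle mice. *Slc25a25* was uneven within the treated group. It measured 5.48, 25.7, 56.3 and 18.3 FPKM in rFGF4 mice 1, 2, 3 and 5, and 12.1, 10.1, 16.0 and 10.4 FPKM in vehicle mice 2, 3, 4 and 5. The lowest and the highest value of all 8 mice were both in the rFGF4 group. Its log2 fold change of 0.69 had a standard error of 0.57 (limma unadjusted p = 0.262, exact permutation p = 0.4, two-sided). Without rFGF4 mouse 1 it rose to 1.25 and passed the study's threshold, and without rFGF4 mouse 1 and vehicle mouse 5 together, a choice made after seeing the data, it was 1.19 and passed as well. The adjusted p by limma was 0.9995 and 0.728 in these fits. Without rFGF4 mouse 3 it was 0.21, the lowest value with any mouse left out.

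*Slc25a24* was the carrier with the largest fold change and the widest spread. It measured 16.3, 4.43, 2.81 and 1.21 FPKM in rFGF4 mice 1, 2, 3 and 5, and 1.22, 1.60, 0.576 and 6.57 FPKM in vehicle mice 2, 3, 4 and 5. The highest value of each group was in rFGF4 mouse 1 and vehicle mouse 5, whereas rFGF4 mouse 1 had the lowest *Slc25a25* and *Slc25a5*. The highest mouse was 28.3 times the lowest, and the log2 fold change of 0.88 had a standard error of 0.68 (limma unadjusted p = 0.232). Without rFGF4 mouse 1 it was 0.31, and without vehicle mouse 5 it was 1.35. The part of the leukocyte and tubule content in these values was not tested.

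The promoters of *Slc25a1*, the carrier with an unadjusted p under 0.05, and of *Slc25a25*, a carrier that was uneven within the treated group, are shown because they carry sequence motifs of known factors. Both come from RefSeq on GRCm38.p6, run 5′ to 3′ along the gene across a transcript start, and lie on the minus strand at chr16:17928170-17928469 and chr2:32424017-32424316. In *Slc25a1* the capitals mark the 2 copies of the CCAAT box, the binding motif of the NF-Y factor, here as ATTGG on the gene's strand. In *Slc25a25* they mark TGACGTCA, the full cAMP response element bound by the CREB family, while 1 CCAAT box of this window is left in lower case.
Slc25a1: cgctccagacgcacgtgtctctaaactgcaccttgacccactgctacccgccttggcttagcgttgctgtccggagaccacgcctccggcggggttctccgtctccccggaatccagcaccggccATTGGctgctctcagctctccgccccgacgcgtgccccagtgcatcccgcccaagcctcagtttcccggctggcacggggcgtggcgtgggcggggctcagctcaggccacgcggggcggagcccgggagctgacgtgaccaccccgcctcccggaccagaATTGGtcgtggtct
Slc25a25: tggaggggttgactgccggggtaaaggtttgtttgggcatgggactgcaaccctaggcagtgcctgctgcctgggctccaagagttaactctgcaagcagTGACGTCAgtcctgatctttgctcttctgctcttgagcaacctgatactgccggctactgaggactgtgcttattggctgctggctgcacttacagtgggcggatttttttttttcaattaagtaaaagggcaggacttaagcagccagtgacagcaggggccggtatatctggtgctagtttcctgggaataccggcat

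Such windows were found for 38 of the 49 members, 48 windows in all since some genes have several starts. The letters TGACGTCA, a palindrome, stood in 2 of the 48 windows, those of *Slc25a25* and *Slc25a36*, and in 1.79% of the 32851 windows of all genes. CCAAT on either strand stood in 22 of the 48 and in 37.4% of all windows, and neither motif contains the other. *Slc25a25* has 3 windows and only the printed one holds TGACGTCA, while the FPKM of the gene is not split among its starts. A match of letters is a description of the window and says nothing of binding in these kidneys.

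The carboxylate carriers hold the carrier with the smallest p. *Slc25a1* exports citrate, the source of cytosolic acetyl-CoA for lipid synthesis, and lies on chromosome 16 from 17925223 to 17928219 (GRCm38). It measured 47.9, 39.4, 44.7 and 45.4 FPKM in rFGF4 mice 1, 2, 3 and 5, and 36.3, 33.8, 40.3 and 34.7 FPKM in vehicle mice 2, 3, 4 and 5. Every rFGF4 mouse was above the vehicle median, but rFGF4 mouse 2 lay below vehicle mouse 4, so that the groups overlapped. The log2 fold change was 0.28 with a standard error of 0.11 (limma unadjusted p = 0.0318, adjusted p = 0.918), and the two-sided exact permutation p was 0.0571. The change is smaller than 1.5-fold, and its value ran from 0.16 to 0.38 over the alternative settings. The unadjusted p by limma ran from 0.0255 to 0.0788 with a mouse left out and missed 0.05 in 6 of these 8 fits. It was 0.33 under median-ratio scaling, 0.0157 under scaling without mitochondrial transcripts and 0.00996 with no filter on low values.

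*Slc25a10*, which exchanges malate and succinate for phosphate, measured 58.8, 106, 116 and 100 FPKM in rFGF4 mice and 74.6, 65.6, 91.9 and 69.8 in vehicle mice. Of the rFGF4 mice, 3 lay above every vehicle mouse and mouse 1 lay below all 4. Its log2 fold change was 0.30 with an interval of -0.22 to 0.81 (limma unadjusted p = 0.221), with 0.51 without rFGF4 mouse 1 and 0.19 without rFGF4 mouse 3. The oxoglutarate carrier *Slc25a11*, part of the malate-aspartate shuttle, measured 49.8, 59.5, 72.0 and 74.8 FPKM in rFGF4 mice and 73.6, 62.2, 72.5 and 59.3 in vehicle mice. The groups overlapped, with the same mouse lowest, and the log2 fold change of -0.07 was 0.04 without it. *Slc25a21*, the oxodicarboxylate carrier, was low at 1.01 to 2.79 FPKM, with a log2 fold change of -0.03.

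The carriers of amino acids showed a median log2 fold change of 0.07 over the 7 of 9 that were tested. The aspartate-glutamate carriers *Slc25a13* and *Slc25a12*, the other part of the malate-aspartate shuttle, had means of 19.6 ± 3.40 against 18.7 ± 4.43 FPKM and 8.79 ± 1.55 against 9.05 ± 1.5 FPKM (SD, n = 4 each, rFGF4 first). *Slc25a15*, the ornithine carrier of the urea cycle, ranged from 12.1 to 27.2 FPKM in rFGF4 and from 14.1 to 21 in vehicle mice. The glutamate carrier *Slc25a22* measured 4.42 to 6.85 FPKM in rFGF4 and 2.40 to 5.82 in vehicle mice. Its log2 fold change was the largest of the group at 0.32 (limma unadjusted p = 0.203). *Slc25a44*, a carrier of branched-chain amino acids, and *Slc25a38*, a glycine carrier of heme synthesis, had log2 fold changes of 0.11 and -0.14. *Slc25a29*, a carrier of basic amino acids, measured 1.05, 1.55, 0.706 and 2.07 FPKM in rFGF4 mice and 1.99, 1.35, 1.54 and 1.47 in vehicle mice. The rFGF4 values enclosed all vehicle values, and the log2 fold change was -0.17, with a range of -0.31 without rFGF4 mouse 5 to -0.03 without rFGF4 mouse 3. *Slc25a18* and *Slc25a2* did not exceed 0.274 FPKM and were not tested.

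The carriers of cofactors and of nucleotides other than ATP were compared next. Over all roles the groups did not overlap for 2 of the 40 tested members, against 3.33% of all tested genes (2.66% higher and 0.667% lower in rFGF4). *Slc25a32*, which carries folate or flavin cofactors into the matrix, measured 2.58, 3.05, 2.77 and 2.69 FPKM in rFGF4 mice and 2.29, 2.17, 1.27 and 2.45 in vehicle mice. All 4 rFGF4 mice lay above all 4 vehicle mice, and the closest pair was rFGF4 mouse 1 and vehicle mouse 5. The log2 fold change was 0.33 with a standard error of 0.16 (limma unadjusted p = 0.0693), and the exact permutation p of 0.0286 is the smallest that 4 mice against 4 allow. It passed neither the study's threshold nor an adjusted p, and over the alternative settings its log2 fold change ran from 0.19 to 0.46.

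**Figure D3:**
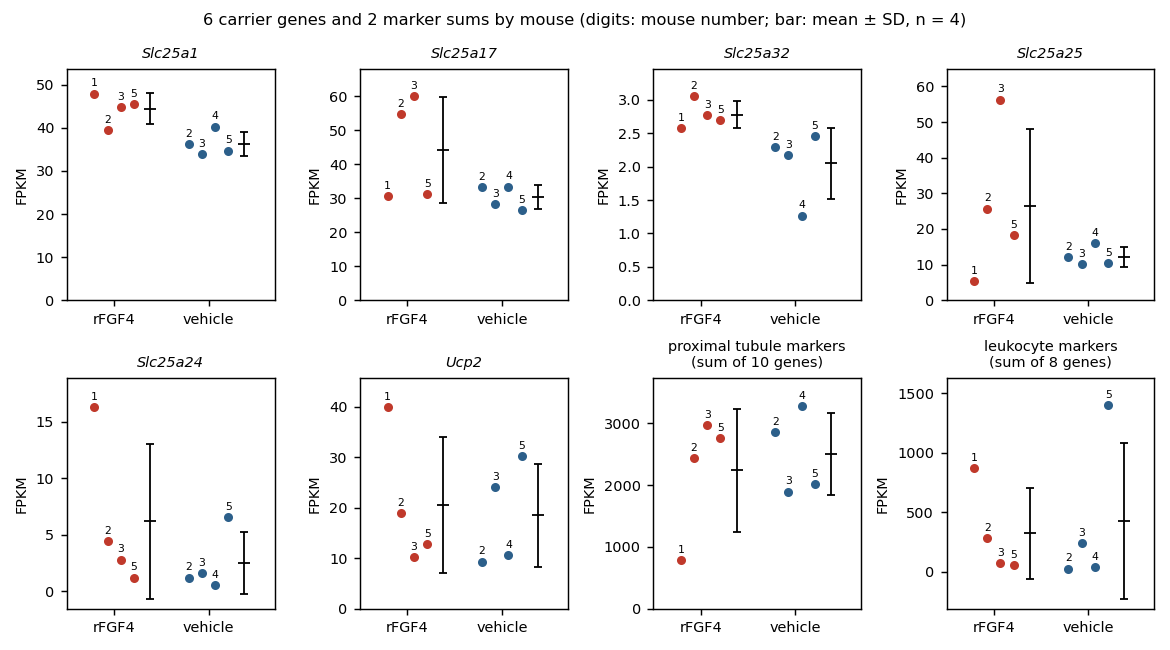
FPKM by mouse of 6 carriers and of 2 sums of marker genes; points are mice with their numbers, and bars are the mean ± SD of 4 mice per group. *Slc25a32* does not overlap between groups, *Slc25a25* is spread from 5.48 to 56.3 FPKM within rFGF4, and rFGF4 mouse 1 and vehicle mouse 5 are highest in their groups for *Slc25a24*, *Ucp2* and the leukocyte markers.

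*Slc25a17*, a carrier of cofactors such as coenzyme A that resides in peroxisomes, measured 30.6, 54.8, 60.1 and 31.2 FPKM in rFGF4 mice and 33.2, 28.3, 33.4 and 26.6 in vehicle mice. Mice 2 and 3 of the rFGF4 group stood well above the vehicle range, and mice 1 and 5 lay inside it. The log2 fold change was 0.47 with a standard error of 0.24 (limma unadjusted p = 0.0894, exact permutation p = 0.171). It was 0.62 without rFGF4 mouse 1 and 0.61 without rFGF4 mouse 5, and in both fits it passed the study's threshold, with adjusted p by limma of 0.9995 and 0.522. Without rFGF4 mouse 2 it was 0.34 and without rFGF4 mouse 3 it was 0.30, and neither fit passed. Further carriers of this role had log2 fold changes from -0.14 for *Slc25a33*, which carries pyrimidine nucleotides, to 0.19 for *Slc25a36*, which does the same. The NAD carrier *Slc25a51* was level between the groups, at 20.8 ± 2.87 and 20.8 ± 4.56 FPKM (SD, n = 4 each). *Slc25a16* and *Slc25a42*, linked to coenzyme A, had log2 fold changes of -0.02 and 0.12, and *Slc25a42* ranged from 5.57 to 15.8 FPKM in rFGF4 and from 5.89 to 15.9 in vehicle mice. *Slc25a26*, which imports the methyl donor S-adenosylmethionine, was the steadiest carrier of all tested, at 2.07 to 2.47 FPKM across the 8 mice.

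The carriers of iron and glutathione had a median log2 fold change of 0.07, and none had an unadjusted p under 0.05 by limma. *Slc25a39*, a glutathione carrier, measured 52.1, 90.4, 93.7 and 79.0 FPKM in rFGF4 mice and 86.0, 69.5, 86.9 and 70.9 in vehicle mice. Mouse 1 of the rFGF4 group was again lowest, and the log2 fold change was -0.02, or 0.16 without that mouse. Its relative *Slc25a40* stayed between 0.969 and 1.24 FPKM. The mitoferrins *Slc25a37* and *Slc25a28* bring iron into the matrix, *Slc25a37* above all in developing red cells. *Slc25a37* measured 9.98, 9.10, 9.07 and 7.93 FPKM in rFGF4 mice and 6.31, 8.03, 8.09 and 9.24 in vehicle mice. The summed FPKM of 5 erythroid markers in the same mice was 120, 1556, 437 and 2657 in rFGF4 and 3793, 4325, 2700 and 1139 in vehicle. The mouse with the lowest erythroid sum, rFGF4 mouse 1, had the highest *Slc25a37*. The reverse order did not hold throughout, since *Slc25a37* was lowest in vehicle mouse 2 and the erythroid sum highest in vehicle mouse 3. The part of erythroid RNA in these values was not tested. The log2 fold changes of *Slc25a37* and *Slc25a28* were 0.17 and 0.16.

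Among the uncoupling proteins only *Ucp2* was expressed at an appreciable level. *Ucp2*, which is abundant in immune cells, measured 40.0, 19.0, 10.3 and 12.8 FPKM in rFGF4 mice 1, 2, 3 and 5, and 9.35, 24.0, 10.6 and 30.2 FPKM in vehicle mice 2, 3, 4 and 5. The 2 highest values of each group were in the 2 mice with the highest leukocyte marker sums of that group. The sums were 873 and 283 in rFGF4 mice 1 and 2, and 244 and 1399 in vehicle mice 3 and 5. The part of leukocyte RNA in the *Ucp2* values was not tested. Its log2 fold change was 0.11 with an interval of -1.02 to 1.24, with -0.26 without rFGF4 mouse 1 and 0.39 without vehicle mouse 5. *Ucp1* was listed at 0 in 5 of 8 libraries and reached at most 0.149 FPKM, and *Ucp3*, the muscle form, reached at most 0.176 FPKM. Beside them, the summed FPKM of 4 other brown fat markers was at most 0.18 and that of 6 skeletal muscle markers at most 2.22.

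*Slc25a30*, described as a kidney mitochondrial carrier protein, was the most abundant member of this role at 23.9, 32.6, 32.5 and 19.7 FPKM in rFGF4 mice and 15.8, 30.2, 24.4 and 19.2 in vehicle mice. The groups overlapped, and the log2 fold change was 0.28 with an interval of -0.26 to 0.82. It was 0.13 without vehicle mouse 2 and 0.43 without vehicle mouse 3. *Slc25a14* and *Slc25a27*, further relatives of the uncoupling proteins that are best known from the nervous system, lay at 1.47 to 2.42 and 0.703 to 1.75 FPKM.

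Of 9 members with less defined substrates, 6 were tested. *Slc25a35* had the lowest log2 fold change of all carriers, -0.30 with a standard error of 0.32. It measured 3.31, 7.17, 7.74 and 9.98 FPKM in rFGF4 mice and 12.3, 8.32, 8.64 and 5.42 in vehicle mice, and the groups overlapped. Without rFGF4 mouse 1 its log2 fold change was -0.02, and without vehicle mouse 5 it was -0.48. *Slc25a45* measured 12.6, 13.5, 11.8 and 10.9 FPKM in rFGF4 mice and 12.2, 15.4, 12.9 and 15.2 in vehicle mice, a log2 fold change of -0.18 (limma unadjusted p = 0.184). All 4 rFGF4 values lay below the vehicle median. *Slc25a46*, an outer membrane protein of mitochondrial shape, ranged from 9.16 to 10.5 FPKM in rFGF4 and from 7.14 to 9.36 in vehicle mice, with an exact permutation p of 0.0571. *Slc25a43* was too low for the test, but its values of 0.369 to 0.489 FPKM in rFGF4 and 0.124 to 0.291 in vehicle mice did not overlap. It was named after its values were seen. *Slc25a34*, *Slc25a48* and *Slc25a47* had log2 fold changes of 0.20, 0.23 and 0.05, each with an interval that held 0. *Slc25a53* lay at 0.382 to 0.828 FPKM in rFGF4 and 0.192 to 0.711 in vehicle mice, below the level for the test. *Slc25a54* was listed at 0 in all 8 libraries.

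Certain mice stood apart across many carriers at once. Of the 40 tested members, 16 had their lowest value in rFGF4 mouse 1, 40%, against 10.9% of all tested genes, and 7 had their highest value there, 17.5%, against 48.1% of all tested genes. The median deviation of that mouse from the mean of the 8, on the log2 scale, was -0.14 for the carriers and 0.28 for all tested genes. Vehicle mouse 5 showed the same signs of the median, with -0.18 for the carriers and 0.11 for all tested genes. It held the lowest value of 6 tested members, 15%, against 5.88% of all tested genes. Vehicle mouse 2 also held the lowest value of 6, against 20.2% of all tested genes. In rFGF4 mice 2, 3 and 5 the median deviation of the carriers was 0.07, 0.10 and 0.07, beside 0.07, -0.06 and -0.08 for all tested genes. In vehicle mice 2, 3 and 4 it was -0.0038, -0.07 and 0.06, beside -0.11, -0.06 and -0.12 for all tested genes. The highest leukocyte sums were in rFGF4 mouse 1 and vehicle mouse 5, whose proximal tubule sums were 791 and 2019, in that order. The lowest proximal tubule sum of the vehicle group was 1894, in mouse 3. Transcripts of mitochondrial DNA made up 19.0% of the summed FPKM in rFGF4 mouse 1 and 24.4% in vehicle mouse 5, against 24.7% to 38.4% in the other 6 mice. The part of cell content in the carrier levels was not tested.

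**Figure D4:**
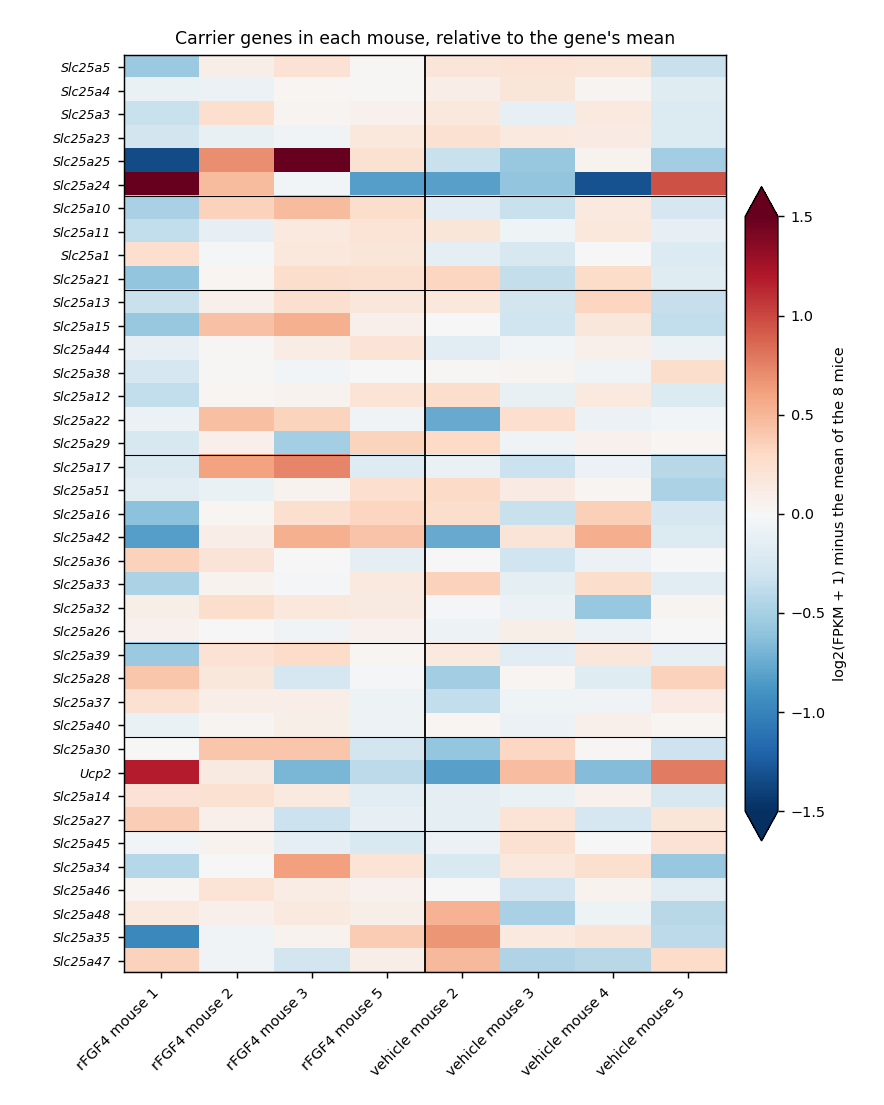
Log2(FPKM + 1) of 39 tested carriers in each mouse minus the mean of the 8 mice, with roles separated by horizontal lines in the same order as the plot of levels. Blue prevails in rFGF4 mouse 1, where 16 carriers had their lowest value, while *Slc25a24* and *Ucp2* are red there and in vehicle mouse 5.

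Summed over all 49 members, the carriers reached 1085, 1481, 1600 and 1409 FPKM in rFGF4 mice and 1435, 1402, 1477 and 1159 in vehicle mice. The means of 1394 ± 220 and 1368 ± 143 (SD, n = 4 each) differed by less than the SD of either group (two-sided exact permutation p = 0.8). The sum follows *Slc25a5* to a large extent. Without it the means were 873 ± 108 and 806 ± 58.1 (exact permutation p = 0.314).

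Other genes of mitochondrial transport were examined in the same fit. From a list of 24 that do not belong to the family, including the pyruvate carrier, the calcium uniporter, the sideroflexins and the porins, all 24 were tested and 0 passed the study's threshold, against 1.53% of all tested genes. None had an unadjusted p under 0.05 by limma, against 4.62%. A log2 fold change above 0 was found for 14 of the 24, 58.3%, against 67.1% of all tested genes, with a median of 0.05. The porin *Vdac1*, the main channel of the outer membrane, measured 213 ± 33.8 FPKM in rFGF4 and 198 ± 35.3 in vehicle mice (SD, n = 4 each). The extremes were -0.24 for *Mpc2*, a subunit of the pyruvate carrier, and 0.31 for *Mcub*, the dominant-negative uniporter subunit. *Mcub* was highest in rFGF4 mouse 1 at 6.03 FPKM and in vehicle mouse 5 at 4.87 FPKM.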

How the data were processed

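Kidney mRNA of 8 diabetic mice was sequenced. The authors assembled mapped reads with StringTie, merged transcripts with gffcompare and deposited FPKM per gene. The submitters' processing notes name HISAT2 2.0, Bowtie 0.12.2, StringTie 1.3.0 and the build mm8, with no role given, while 99.5% of the gene identifiers were found in GENCODE M21 (GRCm38), which gave the positions. The deposited fold changes, p-values and q-values of the authors' edgeR comparison were not used. No counts were given, so no counting interval was calculated, and relative depth came from the FPKM ratio that low genes shared most often. Of all values, 57.5% were 0.0001.

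Genes with at least 0.5 FPKM in 4 or more libraries were compared as log2(FPKM + 1), using the trended variance of limma 3.58.1 (R 4.3.3). Its p-values were adjusted after Benjamini and Hochberg over 15150 genes. The procedure was tested on simulated data. Single values were compared by exact permutation over mice (SciPy 1.17.1). The labels do not say that shared mouse numbers mark pairs, so no block was used. The members, role lists, marker lists and alternatives were chosen with earlier results of these data known. By rule the text names the 6 members highest by mean FPKM, the 4 highest and 4 lowest log2 fold changes, members whose groups did not overlap, the uncoupling proteins with *Slc25a30*, members below the filter, and the extremes of the list of other transport genes. *Slc25a1*, *Slc25a37*, *Slc25a43*, *Vdac1* and the members given by range, mean or fold change only were named after their values were seen. Alternatives were another pseudocount, 2 filters, 2 scalings, no trend, a larger fold change, each mouse left out and the block. The values of 1 tested member are not reported here, and of the other transport genes only *Vdac1*, *Mpc2* and *Mcub* are given by value.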

Additional observations from a re-analysis of the deposited data

Results flagged for a closer look

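In groups of 4 mice, the gap between the most extreme mouse and its nearest neighbour was divided by the range of the group, with log2(FPKM + 1) taken for each gene and plain FPKM for sums, and ratios above Dixon's 95% critical value were taken as a mouse far from the others. Of 54 groups examined, 2 passed, where chance alone gives about 2.7. Both concern vehicle mouse 5. For *Slc25a5* the ratio was 0.944, with 423 FPKM in that mouse against 603 to 616 in the other vehicle mice. For the summed FPKM of the carriers of adenine nucleotides and phosphate, of which *Slc25a5* is the largest part, it was 0.988, with 641 FPKM against 869 to 871.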

How the results depend on the processing

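No tested carrier passed the study's threshold under another pseudocount, without a filter, with a filter on the mean, under either scaling, without a trend in the prior variance or at a fold change of at least 2, and none passed an adjusted p. With each mouse left out in turn 0 to 2 carriers passed, *Slc25a25* and *Slc25a17* without rFGF4 mouse 1 and *Slc25a17* without rFGF4 mouse 5, and 1 passed without rFGF4 mouse 1 and vehicle mouse 5. A fit with the mouse number as a block, which is not a stated pairing, compared only mice 2, 3 and 5 of the groups. Neither rFGF4 mouse 1 nor vehicle mouse 4 had a partner of its number, so they did not add to the difference. In this fit 4 of 40 passed against 1.74% of all tested genes. These were *Slc25a25* at a log2 fold change of 1.39, *Slc25a17* at 0.66, *Slc25a10* at 0.61 and *Slc25a42* at 0.61, all with an adjusted p of 0.9985 by limma. The deviations of same-numbered mice correlated at -0.23, -0.16 and -0.39, which does not pair them. With the block the median was 0.13 for the tested carriers and -0.02 over all genes, and the p of *Slc25a1* by limma was 0.131. The block turned the sign of *Slc25a5* to 0.0876, *Slc25a39* to 0.22, *Slc25a11* to 0.0789 and *Ucp2* to -0.46. Over all genes 54 passed at a fold change of at least 2, and 182 to 569 passed the study's threshold with a mouse left out, against 232 with all 8, with 569 without rFGF4 mouse 5 and 421 without vehicle mouse 5. The number of tested carriers above 0 was 24, 18 under scaling to a common median ratio and 32 under scaling without mitochondrial transcripts, with medians of -0.03 and 0.14 beside -0.01 and 0.16 over all genes. Median-ratio scaling turned *Slc25a3* to -0.12 and *Ucp2* to -0.0133, and scaling without mitochondrial transcripts turned *Slc25a4* to 0.027, *Slc25a39* to 0.0795 and *Slc25a11* to 0.0245. *Slc25a39* was 0.12 without rFGF4 mouse 1 and vehicle mouse 5. The log2 ratio of the summed FPKM, 0.03 with all mice, was -0.0859 under median-ratio scaling and -0.046 to 0.13 with a mouse left out. With a mouse left out, log2 fold changes ran from -0.25 to 0.0457 for *Slc25a5*, -0.11 to 0.16 for *Slc25a39*, -0.15 to 0.0388 for *Slc25a11*, -0.073 to 0.12 for *Slc25a3* and -0.26 to 0.39 for *Ucp2*. The causes of these moves were not tested, and the number of fragments behind a value was not known.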

Other observations

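In 4 of 5 pairs of carriers that lie close together in the genome, the levels did not overlap. *Ucp3* and *Ucp2* lie 6.90 kb apart on chromosome 7 (100472990 to 100502020, GRCm38) on the same strand, and measured at most 0.176 FPKM and at least 9.35 FPKM. *Slc25a54* and *Slc25a24* lie 6.46 kb apart on chromosome 3 (109080469 to 109168457), and *Slc25a54* was listed at 0 in all 8 libraries while *Slc25a24* was between 0.576 and 16.3 FPKM. *Slc25a43* and *Slc25a5* lie 18.4 kb apart on chromosome X (36743659 to 36798807), at no more than 0.489 FPKM and no less than 360 FPKM. *Slc25a41*, the paralog 2.06 kb from *Slc25a23* on chromosome 17 (57032773 to 57059863), was above 0 in 1 library, at 0.0426 FPKM, while *Slc25a23* was at 17.8 FPKM or above. *Slc25a29* and *Slc25a47* start 162 bases apart on opposite strands of chromosome 12 (108825873 to 108856815). Their levels overlapped, at 0.706 to 2.07 FPKM for *Slc25a29* and up to 1.21 FPKM for *Slc25a47*. Exons of 15 of the 49 members overlap those of another gene, among them *Slc25a25*, *Ucp2*, *Slc25a10*, *Slc25a11*, *Slc25a35* and *Slc25a37*. Most of these other genes lie on the opposite strand, and fragments there cannot be assigned without strand. For *Slc25a47* and *Slc25a51* the other gene lies on the same strand, so strand would not separate them.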
